A study of Caenorhabditis elegans with 3 samples.

Results

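The regions described are the weaker ChIP-seq peaks of RPC-1, which is the largest subunit of Pol III (RNA polymerase III), in the nematode Caenorhabditis elegans: peaks that stood in a list made from 3 pooled ChIP-seq replicates but not among the reproducible peaks of the same study. The 30000 pooled peaks on genome build ce11 (assembly WBcel235), 29975 of them on nuclear chromosomes, were ranked by the signal the authors deposited for each peak. Members were chosen by rank: of the 4000 peaks after rank 2000 and up to rank 6000, 278 overlapped a reproducible peak and 2023 of the other 3722 had their summit within 500 bp of a transcription start site (TSS) of a protein-coding gene. The remaining 1699 peaks are the members. Some of their intervals overlap one another, and each peak was counted separately. All samples formed 1 group: whole young adult hermaphrodites of strain YL517, a stable transgenic line with a C-terminal GFP-FLAG tag on RPC-1, whose chromatin was sonicated and precipitated with an antibody to GFP in 3 biological replicates. Every cell type of the animal is therefore mixed in each value. No untagged strain or control library was analysed here, and read depth is unknown because the lists hold no read numbers.

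Pol III makes short RNAs such as tRNAs, 5S rRNA and U6 snRNA. At tRNA genes the factor TFIIIC, which takes part in bringing Pol III to the gene, binds the A box and B box. Both boxes lie inside the transcribed sequence. Degenerate copies of tRNA genes can keep these boxes. Protein-coding genes are transcribed by another enzyme, RNA polymerase II, and in C. elegans many of their transcripts receive a spliced leader.

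The signal that chose the members ran from 19.3 to 73.1 with a median of 26.1 on the scale of the pooled list. The first member, just inside the upper limit, had a signal of 73.1, and the nearest peak outside that met the other conditions, at rank 1993, had 73.5. At the lower limit the signal was 19.285 just inside, at rank 6000, and 19.282 just outside. For comparison, the 1617 reproducible peaks over 500 bp from a TSS had a median signal of 441 in their own list. The q value of the members ran from 0.000111 to 0.00673, and 903 members had the lowest q of the list. Of the 1699 members, 1610 had the default width of 456 bp, so a peak's width carried little information and each member was placed by its summit. Because the members were chosen on signal, their signals are given as a description.

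The sequences around several strong members are shown first, because their features recur in the counts below. Each is the plus strand of ce11 from 50 bases before to 50 bases after the summit, from the RefSeq assembly. Capitals mark a match on either strand to the B box core, GTTCNANNC, or to the 11-base A box pattern. The 4 below are the strongest members with an exact core that are shown here. The first 2 lay at the tRNA pseudogenes C54E10.t6 (34 bp from the summit) and W06D12.t1 (under the summit), inside the genes sri-10 and cutl-4. The next 2 lay between genes, with the nearest annotated small RNA genes 10239 and 4771 bp away and a reproducible peak 78 and 362 bp away.

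V:18804766-18804866: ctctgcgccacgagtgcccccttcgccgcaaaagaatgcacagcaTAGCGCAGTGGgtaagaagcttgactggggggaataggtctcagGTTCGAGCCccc

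V:17734683-17734783: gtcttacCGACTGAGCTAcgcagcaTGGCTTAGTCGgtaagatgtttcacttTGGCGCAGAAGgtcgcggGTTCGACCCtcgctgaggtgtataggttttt

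V:20006286-20006386: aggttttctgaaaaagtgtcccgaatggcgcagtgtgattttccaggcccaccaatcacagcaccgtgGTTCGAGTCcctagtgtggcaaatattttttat

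IV:1479444-1479544: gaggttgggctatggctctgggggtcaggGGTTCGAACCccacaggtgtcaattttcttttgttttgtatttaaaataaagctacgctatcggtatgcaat

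In the first of these an A box stood upstream of the B box core on the plus strand, the order found in a tRNA gene. The second held 3 A box matches and 1 core, and all of its 36-base words occurred again elsewhere in the genome. The fourth held the core on both strands, at overlapping positions. Next come strong members of other settings, in an intron (pro-3), in a gene of another kind, at a snoRNA gene (C05H8.3, inside ckk-1) and in a coding exon (T19D12.1). In the first 2 of these the capitals mark an A box on the minus strand although no tRNA gene was annotated there, the nearest small RNA genes being 20679 and 60037 bp away. The third held neither pattern, and the fourth held the core with no small RNA gene within 47096 bp.

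V:19105315-19105415: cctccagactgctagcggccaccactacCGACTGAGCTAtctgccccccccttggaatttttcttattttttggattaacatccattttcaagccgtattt

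X:14549519-14549619: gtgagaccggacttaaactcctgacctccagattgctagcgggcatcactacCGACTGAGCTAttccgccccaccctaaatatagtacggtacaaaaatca

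III:5653917-5654017: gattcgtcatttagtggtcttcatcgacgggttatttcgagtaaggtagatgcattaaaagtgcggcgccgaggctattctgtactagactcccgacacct

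II:6669023-6669123: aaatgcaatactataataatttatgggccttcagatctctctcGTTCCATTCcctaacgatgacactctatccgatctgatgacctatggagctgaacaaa

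The 3 replicate lists were read for the same places. They held 24159, 24539 and 29975 nuclear peaks and covered 10.2%, 10.5% and 12.9% of the nuclear genome. A member was counted as found where a replicate peak overlapped it by at least 1 bp. Replicate 1 held 1510 members (88.9%), replicate 2 held 1518 (89.3%) and replicate 3 held 1649 (97.1%), a mean of 91.8% ± 4.59 (SD, n = 3). All 3 lists held 1311 members, or 77.2% (exact Clopper-Pearson 95% interval 75.1 to 79.1%), against 32.8% of all nuclear pooled peaks. Where a replicate summit had to lie within 100 bp of the member's, 35.96% were found in all 3. A further 357 members were in 2 lists and 30 in 1 list. The only member found in none, at X:15983216-15983671 (rank 5869, signal 19.7), was between genes. Across all nuclear pooled peaks 6.45% were in no replicate list. The replicates' reads went into the pooled list, so being found again is not independent of being listed, and intervals on these shares cover the counting of peaks only.

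**Figure D1:**
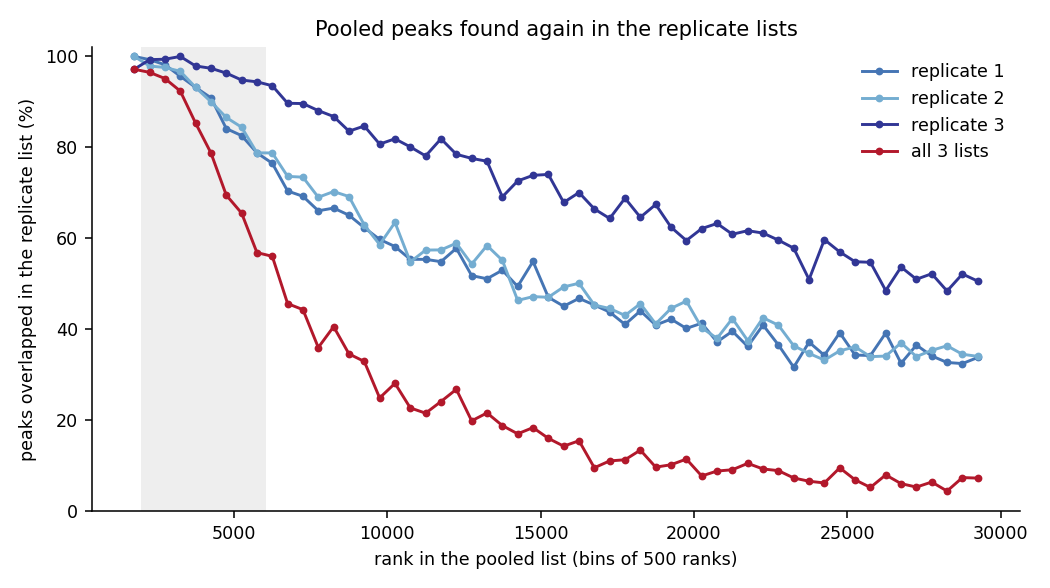
Share of pooled peaks (y axis, %) overlapped by a peak of each replicate list or of all 3, in bins of 500 pooled ranks (x axis); peaks that overlap a reproducible peak or lie within 500 bp of a TSS are left out, and grey marks the members' ranks. Inside the grey band the share in all 3 lists went from 96.5% in the first bin to 56.9% in the last, and replicate 3, the longest list, held the largest share, or tied for it, in every bin of the grey band.

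The share in all 3 lists was 96.2% for the 80 peaks at ranks 1 to 2000 that met the same conditions, 77.2% for the members, 38.7% in the next band (after rank 6000 and up to rank 10000) and 12.01% in the weakest band, below rank 10000. Against only the strongest 6000 peaks of each replicate the counts were 931, 920 and 1117 members. Of all members 407 (24.0%) were then in all 3, where 12.3% of all nuclear pooled peaks were. The median rank of a found member was 4786.5 in replicate 1, 4856 in replicate 2 and 4527 in replicate 3. Within the 1311 members found in all lists, the order of single members varied between replicates: Spearman's rho across members was 0.275, 0.271 and 0.234 for the 3 pairs of lists, as a description across peaks that were preselected on a narrow range of signal.

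Members at the top of the band had different ranks in the 3 lists. The peak at III:5653739-5654194, at the snoRNA gene C05H8.3, had signals of 14.0, 24.4 and 39.7 in replicates 1, 2 and 3 (ranks 2877, 1940 and 1851). The peak at V:20006222-20006402, between genes, had 16.0, 23.9 and 43.7 (ranks 2593, 1951 and 1778). The peak at V:17721610-17721834, 407 bp past the end of str-77, a gene of the chemoreceptor class, had 37.5, 11.9 and 23.6 (ranks 1641, 3212 and 2663). Replicate 3 gave the highest value in the first 2 and replicate 1 in the last, and the values of different lists are not on a common scale. At the 5S rRNA gene rrn-4.3 the signals were 2.12, 14.0 and 20.1, and replicate 1 was the low one.

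By the position of the summit, 719 members (42.3%, 95% interval 39.96 to 44.7%) lay between genes. Another 417 (24.5%) lay in introns, 258 (15.2%) in untranslated exons and 164 (9.65%) in coding exons of protein-coding genes. A further 90 lay within 200 bp of a small RNA gene and 51 in other genes. The comparison was with the background bases, the 77113579 nuclear bases that are over 500 bp from every TSS and outside reproducible peaks, and with weaker peaks of the same list under the same conditions. Between-gene sequence made up 33.9% of background bases, 34.5% of the next band and 30.5% of the weakest. Introns made up 33.9% of background bases, 34.2% of the next band and 44.1% of the weakest. Coding exons made up 23.4% of background bases, 17.2% of the next band and 16.6% of the weakest. The members were thus richer in between-gene and untranslated sequence and poorer in introns and coding exons than each of these sets.

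The same band of each replicate's own list, with the same conditions, gave 1811, 1899 and 1858 peaks. There the between-gene share was 38.9% ± 2.21 (SD, n = 3), the intron share 25.7% ± 0.768 and the coding exon share 14.3% ± 2.46, which is above the pooled 9.65%. In all 3 replicates the intron and coding exon shares were lower, and the between-gene share higher, than in the next band of the same list. No test was made of any of these differences, because the members were selected on the signal of the same libraries.

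**Figure D2:**
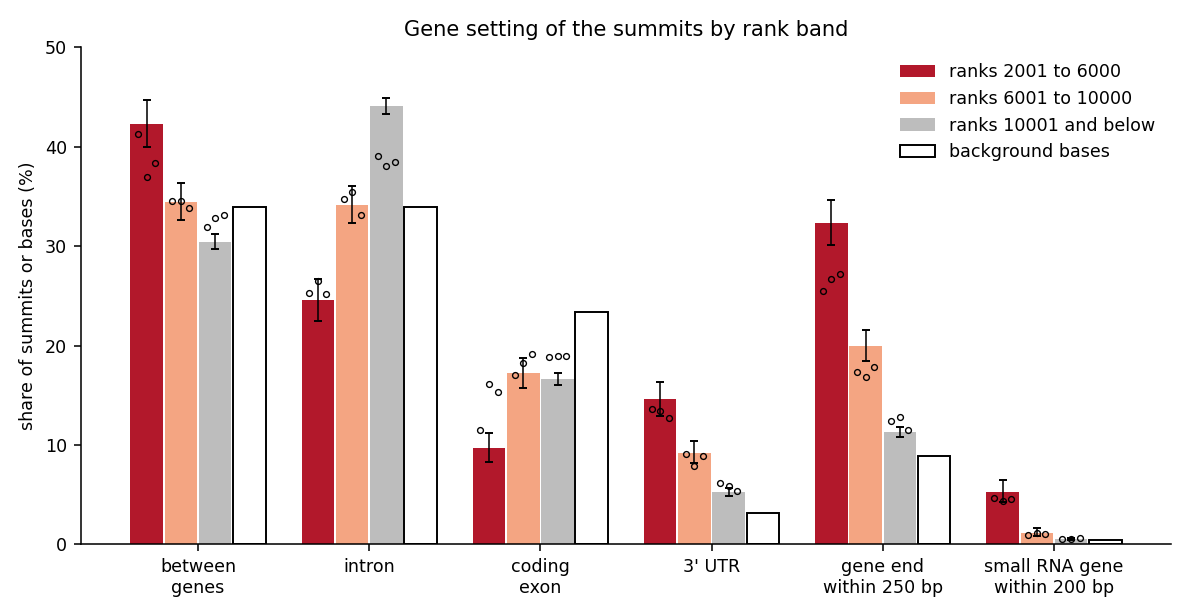
Share of summits (y axis, %) in each gene setting for 3 rank bands of the pooled list (bars, with exact 95% intervals), with the same band in each of the 3 replicate lists as open circles and the share of background bases as white bars. The members' band stands highest at 3' UTRs, gene ends, small RNA genes and between genes, and lowest in introns and coding exons.

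The departure from the background that involved most members was at the 3' ends of genes. Untranslated exons held 15.2% of the members but 3.5% of background bases, and 248 of these 258 members were in 3' untranslated regions (14.6%, 95% interval 13.0 to 16.4%), against 3.16% of background bases, 9.23% of the next band and 5.26% of the weakest. Only 9 of the 1617 reproducible peaks away from a TSS (0.557%) lay there. In the replicates' own bands the share in 3' untranslated exons was 13.2% ± 0.483 (SD, n = 3), against 8.58% ± 0.651 in the next band.

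Counting both sides of the annotated end, 549 members (32.3%, 95% interval 30.1 to 34.6%) had their summit within 250 bp of the end of a protein-coding gene. This measure was added after the share in untranslated exons had been seen. Background bases were this close in 8.91%, the next band in 19.98%, the weakest band in 11.3% and the reproducible peaks in 7.42%. The replicates' own bands gave 25.5%, 26.6% and 27.2%, all above the 16.9 to 17.9% seen in the next band of the same lists. Summits were most frequent just past the end: 189 members (11.1%) lay 0 to 99 bp downstream, 150 lay 100 to 199 bp downstream and 114 lay up to 100 bp upstream. Of the 719 members between genes, 304 (42.3%) lay 1 to 500 bp downstream of the nearest gene end, against 32.3% in the next band and 19.2% in the weakest.

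**Figure D3:**
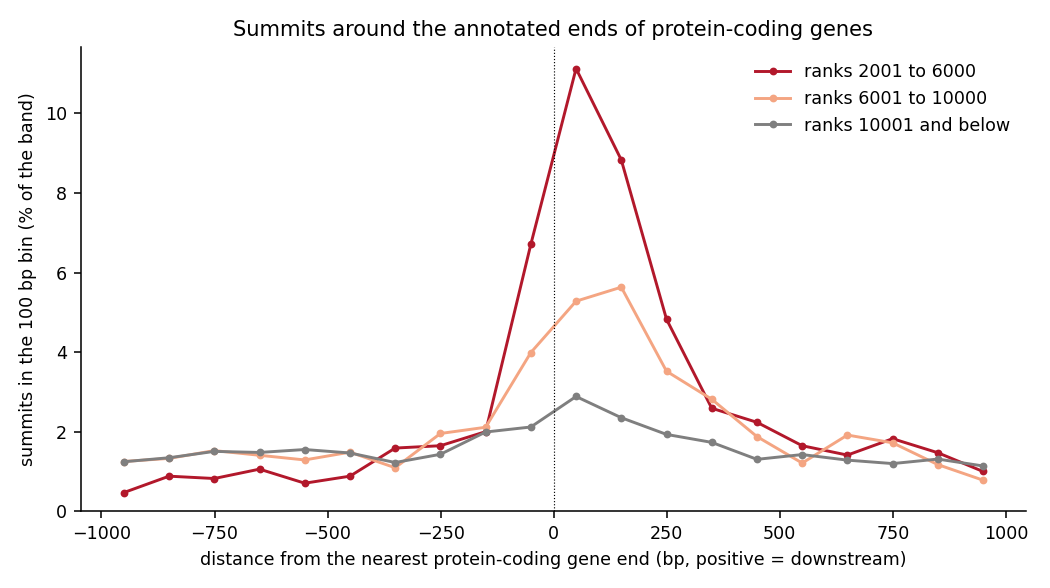
Distance of the summit from the nearest end of a protein-coding gene (x axis, bp, positive downstream, bins of 100 bp) against the share of summits in the bin (y axis, % of each rank band). The members peak at 11.1% in the first bin downstream, the next band stays below 6% and the weakest band below 3%.

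Places where genes on both strands end were also frequent among the members. Within 250 bp of ends on both strands lay 216 members (12.7%, 95% interval 11.2 to 14.4%), against 1.29% of background bases, 6.65% of the next band and 2.41% of the weakest. The replicates' own bands gave 9.87% ± 0.713 (SD, n = 3), with 4.97% ± 0.502 in the next band.

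Some members at gene ends of genes of known function are described here, chosen after their values were seen. The strongest at a gene end, at II:4703015-4703470, lay 11 bp past the end of F10G7.9 and had signals of 10.3, 20.4 and 37.8 in replicates 1 to 3. At I:12654353-12654808, in the 3' untranslated exon of atp-1, which encodes a subunit of the mitochondrial ATP synthase, the signals in replicates 1 to 3 were 23.1, 20.4 and 34.3. At IV:7961906-7962361, 23 bp before the end of csr-1, which encodes an Argonaute protein, they were 9.72, 15.4 and 40.1. At IV:17281124-17281579, 22 bp past the end of hsp-1, which encodes a heat shock protein of the HSP70 family, they were 27.2, 21.04 and 28.5. By rank the peak stood at 1868, 2086 and 2279 in the 3 lists at hsp-1 and at 4092, 2542 and 1841 at csr-1, so the lists placed csr-1 less evenly. At III:7977073-7977528, 54 bp before the end of aco-2, the mitochondrial aconitase gene, the signals were 17.5, 22.9 and 15.5. That summit lay in a coding exon and 511 bp from the TSS of C06G4.4, just past the limit. At I:9166766-9166888, 9 bp past the end of eef-2, the gene of a translation elongation factor, replicates 1 and 3 had 23.3 and 38.5 and replicate 2 had no peak.

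Ribosomal protein genes, whose products build the ribosome, stood out among the gene lists. Of their 78 genes, 37 have an annotated end over 500 bp from every TSS, so that a peak there could be a member. At 22 of these 37 (59.5%, 95% interval 42.1 to 75.2%) a member lay within 250 bp of the end, against 4.84% of the 14705 protein-coding genes with such an end. The same ends held a peak of the next band at 4 of 37 genes (10.8%), against 4.33% of all such genes. In the replicates' own bands 14, 22 and 16 of the 37 ends held a peak, a share of 46.8% ± 11.3 (SD, n = 3) against 4.19% ± 0.288 of all such genes. The list was set with earlier results of these data known, and its measurement at gene ends was added after values were seen.

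The 22 genes carried 23 members, rps-9 having 2 with overlapping intervals and summits on either side of its end. All 23 were found in all 3 replicate lists, as were 77.2% of all members and 91.9% of the members up to rank 4000. The median signal of the 23 was 35.99, against 26.1 for all members. The highest were at rps-6 (signal 59.7, 125 bp past the end), rpl-35 (56.3, 93 bp past) and rps-11 (54.2, 89 bp past). The lowest were at rps-14 (22.6) and rps-19 (21.1). Of the 23, 21 lay downstream of the end, at a median of 122 bp over all 23, and 2 upstream, at rpl-4 and rps-9. Most of the 23 summits, such as those at rpl-18A and rpl-35, also lay within 1000 bp of a TSS, where 31.2% of all members did. Others, such as those at rps-6 and rpl-4, lay farther from a TSS. Whether the high share at these ends goes with the gene end or with a nearby TSS was not tested. Inside the gene bodies of the list, 3 of 78 genes held a member (rpl-4, rps-3 and rps-9), or 3.85%, where 3.92% of all protein-coding genes did. These 2 shares are not a like comparison. The median gene length was 747 bp in the list and 2006 bp over all genes, and the rule bars summits within 500 bp of a TSS.

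The other lists had lower shares than the ribosomal list. Collagen genes, which build the cuticle, held a member at 5 of 133 eligible ends (3.76%, 95% interval 1.23 to 8.56%), near the share of all genes. Genes named hsp, for heat shock, held one at 2 of 16 (hsp-1 and hsp-60), or 12.5% (1.55 to 38.3%), an interval that holds the share of all genes. The 6 vitellogenin genes, which encode yolk proteins, and the 6 eligible muscle genes held none, nor did the 4 eligible histone genes and the 1 eligible gene of the rpc- list. No major sperm protein gene had an eligible end. With so few genes, a count of 0 in these short lists says little.

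Within gene bodies, 783 of 19971 protein-coding genes (3.92%) held 884 members, and 682 of them held 1. The genes with most were ncs-5, a gene of the neuronal calcium sensor family, and noca-1, which acts on microtubules, with 5 each. Some of the ncs-5 members overlap one another, so they are not all separate sites. Next came C14B4.2, the anillin gene ani-3, the cell-corpse engulfment gene ced-7 and pash-1, a partner of Drosha in microRNA processing, with 4 each. All 5 members in ncs-5 were in introns, as were the 4 in C14B4.2, a gene of 30315 bp, and the 4 in ani-3, of 7481 bp. Every member in ncs-5, noca-1, C14B4.2 and pash-1 was found in all 3 replicate lists, against 3 of 4 in ced-7 and 2 of 4 in ani-3. One member of pash-1, at I:10604160-10604378 over the tRNA gene T22A3.t3, had all its 36-base words repeated elsewhere, and its signals were 25.1, 22.7 and 6.84.

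Small RNA genes and tRNA-like sequence formed a smaller group, concentrated at the strong end of the band. Within 200 bp of a small RNA gene lay 90 members (5.30%, 95% interval 4.28 to 6.47%), against 0.396% of background bases, 1.17% of the next band and 41.0% of the reproducible peaks away from a TSS. The share fell with rank, from 9.08% up to rank 4000 to 2.76% after it. In the replicates' own bands it was 4.51% ± 0.134 (SD, n = 3).

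Few of the 90 were at genes known as Pol III templates. There were 5 members at the 612 tRNA genes, 1 at a 5S rRNA gene and none at the 22 U6 genes, the 5 genes of signal recognition particle RNA or the 3 of RNase P, RNase MRP and Y RNA. The rule removed peaks that overlap a reproducible peak, and 495 of the 1617 reproducible peaks away from a TSS (30.6%) lay within 200 bp of such a gene. By class, 22 members (1.29%) lay within 200 bp of the 209 tRNA pseudogenes, whose surroundings made up 0.0566% of background bases. Another 26 (1.53%, against 0.0369% of background bases) were near snRNA genes other than U6, and 22 (1.29%, against 0.136%) near snoRNA genes. Near the 31 spliced leader RNA genes lay 11 members (0.647%, against 0.0149%). The 3 near microRNA genes (0.177%, against 0.116%) were close to the background share. Spliced leader RNA is added to the start of messenger RNAs by trans-splicing. No summit lay on a 21U-RNA gene, the worm's piRNA genes, where 0 of 1699 has an exact 95% interval of up to 0.217%. Such genes made up 0.289% of background bases, and summits lay on them in 0.313% of the next band and 0.566% of the weakest. The replicates' own bands gave 0.110%, 0.316% and 0.161%.

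Promoter boxes were also more frequent in the members. A B box with at most 1 mismatch lay within 50 bp of the summit in 106 members (6.24%, 95% interval 5.14 to 7.496%), against 0.994% of background windows, 1.56% of the next band, 0.846% of the weakest and 38.2% of the reproducible peaks. With no mismatch allowed it was in 3.53% of the members. The exact core GTTCNANNC, which is contained in the B box, was in 127 members (7.47%) and in 3.42% of windows. An A box, searched after the sequences above had been seen, was in 130 members (7.65%) and in 2.41% of windows. An A box followed on the same strand by the core, 25 to 80 bases on and both within 100 bp of the summit, was found in 105 members (6.18%, 95% interval 5.08 to 7.43%), against 0.137% of background windows, 1.37% of the next band and 0.200% of the weakest. In the replicates' own bands this pair was in 5.08%, 4.16% and 4.84% of peaks, and in 0.772 to 0.893% in the next band. All patterns were searched on both strands, and a match is a description of letters only.

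Without any pattern given, the 6-letter words most raised around the members were of the same kind. CGAACC was in 6.65% of members and 1.62% of background windows, and GTTCGA was in 8.53% and 3.63%. These 2 overlap the B box core on one strand or the other. GGCGCA was in 6.65% and 1.44%, and CAGTGG in 6.24% and 2.77%. The words were chosen by their difference in these members.

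**Figure D4:**
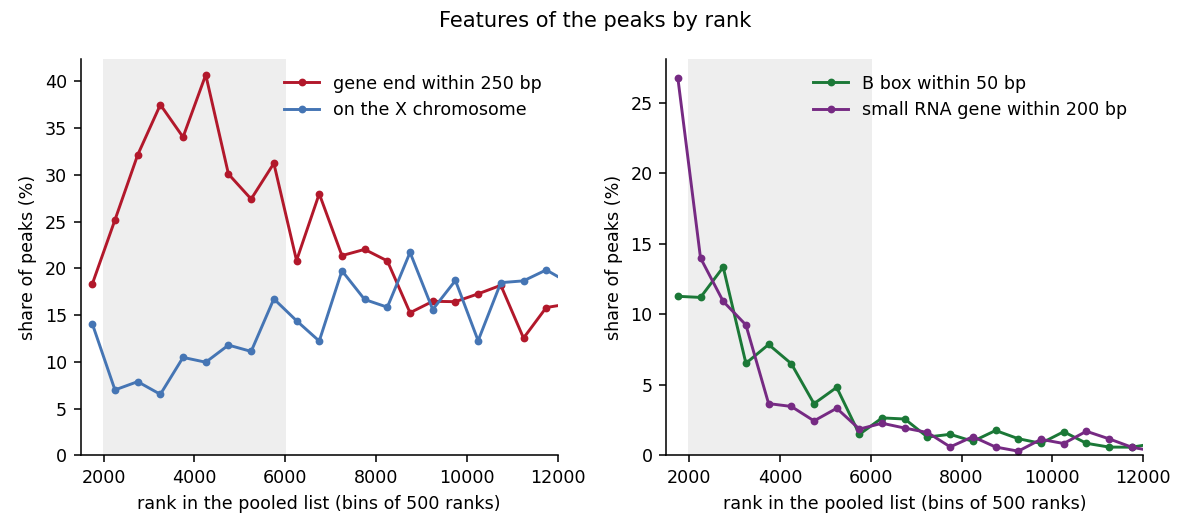
Shares of pooled peaks (y axes, %) by rank in bins of 500 (x axes), for gene ends and the X chromosome on the left and for B boxes and small RNA genes on the right; grey marks the members' ranks. Small RNA genes go from 14.0% to 1.86% across the grey band and B boxes from 11.2% to 1.49%, while gene ends are highest at 40.7% in the bin up to rank 4500.

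Median GC content within 50 bp of the summit was 36.6% for the members, 34.7% for background windows, 33.7% for the next band and 46.5% for the reproducible peaks. The replicates' own bands had 35.6% ± 0.990 (SD, n = 3). Summit bases were soft-masked as repeats in 35.6% of members and 36.8% of background bases, a difference within the 95% interval of 33.3 to 37.9%. The share was higher in the next band (43.0%) and the weakest (47.2%) and lower in the reproducible peaks (28.9%). It was 36.6% ± 2.17 (SD, n = 3) in the replicates' own bands, below the next band in each replicate. At least one 36-base word found again in the genome was present in 199 members (11.7%). The next band had 6.53%, the weakest 7.69% and the reproducible peaks away from a TSS 52.1%. In 73 members (4.30%) at least 50% of the words were found again, against 1.64%, 1.94% and 21.3% in those sets. Reads at such places can be shared between copies, and how the authors placed them is not given in the sources used here. Within 1000 bp of a reproducible peak lay 127 members (7.47%), against 2.73% of background bases and 5.63% of the next band.

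The members were unevenly spread over the chromosomes. Per Mb of background bases there were 26.7 on chromosome I, 23.0 on II, 28.6 on III, 21.4 on IV, 22.3 on V and 12.7 on X. The X chromosome held 182 members, 10.7% (95% interval 9.28 to 12.3%), but 18.5% of background bases. The next band had 17.0% on X, the weakest band 18.5% and the reproducible peaks 30.7%, so the members were the set poorest in X peaks. In the replicates' own bands the X share was 13.1% ± 0.911 (SD, n = 3), against 16.8% ± 2.06 in the next band, and it was the lower of the pair in each replicate.

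The gap was widest at gene ends. On X, 18 of 182 members (9.89%, 95% interval 5.97 to 15.2%) lay within 250 bp of a gene end, while the share ran from 31.1% on V to 41.1% on II among the autosomes. Per Mb of background bases of gene ends there were 16.6 members on X and 62.8 to 130 on the autosomes. Away from gene ends there were 12.4 per Mb on X and 15.1 to 19.95 on the autosomes. The 3' untranslated exons held 4.396% of the X members and 13.8 to 17.6% of the members of each autosome.

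**Figure D5:**
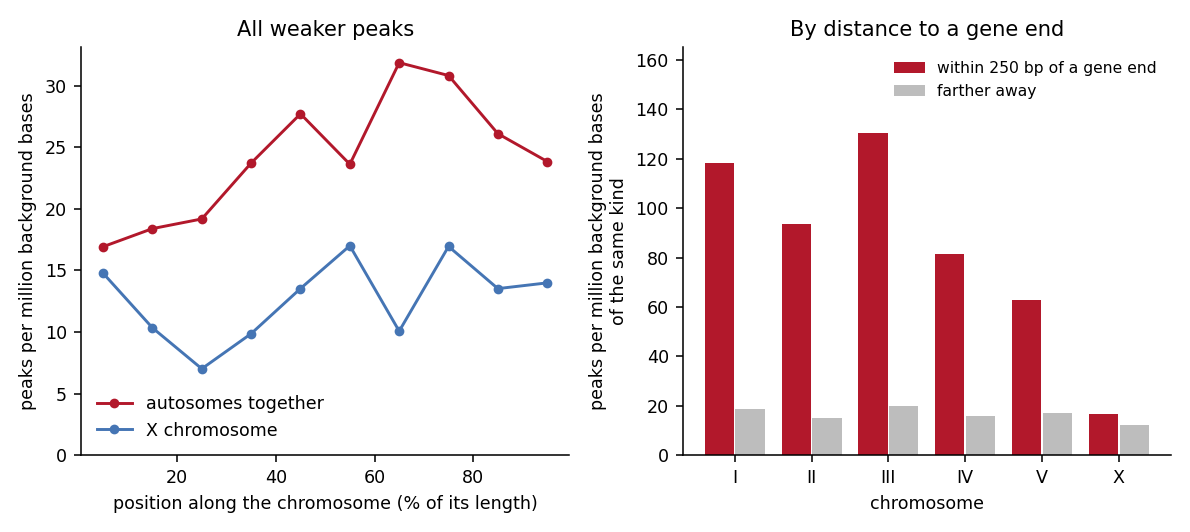
Left, members per Mb of background bases (y axis) in bins of 10% of chromosome length (x axis), for the autosomes together and for X. Right, members per Mb of background bases within 250 bp of a gene end and farther away, by chromosome; the gene end bar is 16.6 on X and at least 62.8 on every autosome.

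Along the chromosomes, 814 members (47.9%, 95% interval 45.5 to 50.3%) lay in the arms, taken as the outer 25% of the length at each end, against 51.1% of background bases, 50.3% of the next band and 57.6% of the weakest. The direction turned within the band: the share was 54.5% up to rank 4000, above the background, and 43.5% after it, below. The reproducible peaks lay there in 67.5%. The replicates' own bands gave 47.6% ± 0.944 (SD, n = 3), near the 48.0% ± 1.17 of their next band. On the autosomes the share was 47.1% (44.5 to 49.6%) and on X 54.9% (47.4 to 62.3%), the latter from 182 members. On the autosomes the density was highest from 60 to 80% of the length, at 31.9 and 30.8 per Mb, and lowest in the first 10% at 16.9.

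Splitting the members by what lay at the summit separated these patterns; the split was made after the shares had been seen. The 181 members with a small RNA gene within 200 bp or a B box within 50 bp lay in the arms in 74.6% (95% interval 67.6 to 80.8%), against 54.2% of background bases of that kind. Of the 531 others within 250 bp of a gene end, 36.5% (32.4 to 40.8%) lay there, against 48.0% of such bases. Of the 987 members with neither, 49.1% (46.0 to 52.3%) did, against 51.4%. The pattern was not particular to the members: in the next band the 3 shares were 62.7%, 38.7% and 52.9%. In the replicates' own bands the 3 shares were 67.7% ± 2.70, 34.8% ± 3.70 and 49.98% ± 1.15 (SD, n = 3), in the same order in each replicate.

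The X chromosome held 6.08% of the small RNA or B box members, 3.20% (1.88 to 5.08%) of the gene end members and 15.6% (13.4 to 18.0%) of those with neither. Background bases of these kinds were on X in 16.3%, 15.8% and 18.9%, and peaks of the next band in 7.46%, 8.30% and 19.5%. The replicates' own bands gave 6.01% ± 1.48, 5.16% ± 1.08 and 17.1% ± 1.48 (SD, n = 3). Median GC was 45.5%, 34.7% and 36.6% in the 3 groups, and the share found in all 3 replicate lists was 87.8%, 79.7% and 73.9%. Median pooled signal, which the rule used, was 33.7, 26.6 and 24.8. The largest group, with 58.1% of the members, thus had neither a gene end, a small RNA gene nor a B box at hand, and it was the one whose chromosome shares stood nearest to the background.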

How the data were processed

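RPC-1 ChIP-seq peak lists on ce11 were used: 1 for each of 3 biological replicates, 1 for the pooled replicates and 1 of reproducible peaks (optimal set by irreproducible discovery rate). The signal deposited for each peak is the authors' peak caller's value and was used to rank and describe peaks within a list. The deposited −log10 q value was converted to q. Per the deposited file lists, the replicate and pooled lists are input for that step and hold background peaks too, and each was made with a control alignment. The sources used here do not name the aligner, the peak caller or their settings. Depth is unknown. Lists on ce10 were not used here. The reproducible ce11 list may not come from the pooled call used here.

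Summits were annotated with the RefSeq annotation of WBcel235, in the order Pol III gene within 200 bp, other small RNA gene within 200 bp, coding exon, untranslated exon, intron, other gene and between genes. Transcription start sites were 26592 positions of 19971 protein-coding genes. A gene end is the annotated 3' end of a protein-coding transcript. The B box was searched with at most 1 mismatch. Shares have exact Clopper-Pearson intervals, which treat members with overlapping intervals as separate peaks. Members and gene lists were chosen with earlier results of these data known. Named members were the strongest of all, per setting, per chromosome and with a B box core, those at the thresholds and the genes with most members. Others at gene ends were picked after their values were seen. Replicate values are mean and SD of 3 lists. The labels call the 3 replicates biological but do not say whether they came from separate cultures, so part of their spread may be technical. Alternatives covered the TSS distance, rank band, overlaps and distances. Interval and motif functions were tested on simulated data. Python 3.11.15, numpy 2.4.6, pandas 2.3.3, scipy 1.17.1 and matplotlib 3.10.9 were used. One sequence is not reported here.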

Additional observations from a re-analysis of the deposited data

How the results depend on the processing

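Narrowing the band to its stronger part, up to rank 4000, or to the weaker part after that left 683 or 1016 members. In that order, the share found in all 3 replicate lists was 91.9 or 67.2%, coding exons 6.44 or 11.8%, untranslated exons 12.3 or 17.1%, between genes 47.1 or 39.1%, the arms 54.5 or 43.5%, X 8.05 or 12.5%, B boxes 9.52 or 4.04%, small RNA genes 9.08 or 2.76%, within 1000 bp of a reproducible peak 9.81 or 5.91%, and median GC 39.6 or 34.7%. Introns were at 21.96% in the stronger band. The arms thus stood above the background share in the stronger band and below it in the weaker one. With a TSS distance of 250 bp, untranslated exons held 13.2%, between genes 48.4%, the arms 45.4%, X 8.82%, small RNA genes 4.24% and the surroundings of reproducible peaks 6.06%. With 1000 bp untranslated exons held 17.4%. The share found in all 3 lists was 59.3% with 50% reciprocal overlap, 35.96% with a replicate summit within 100 bp and 24.0% with the strongest 6000 peaks of each replicate. With 1 replicate left out at a time, the share found in both remaining lists was 79.6 to 86.6%. By its definition this cannot be below the share found in all 3. With arms of 1 in 3 parts of the length at each end, 66.0% of members and 67.7% of background bases lay in them. An exact B box was in 3.53%. Within 500 bp of a reproducible peak lay 2.47%, and 5.13% lay within 1000 bp once those within 500 bp were removed. Without the small RNA steps introns held 26.9%. Chosen after seeing the data, gene ends within 100 bp held 17.8% (3.87% of background bases) and within 500 bp 42.4% (16.6%). The causes of these shifts were not tested. No paired analysis was possible because the samples form 1 group, so no replicate block between groups exists. Rank bands were compared within each replicate. Depth is unknown, so no limit from read numbers can be given.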
